A study of Mus musculus with 6 samples.

Results

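Genes of the extracellular matrix and its remodelling were followed in a mouse acute myeloid leukaemia line treated with DB2313, a small molecule described as an inhibitor of the transcription factor PU.1. The list held 56 genes in 3 groups: structural proteins, matricellular and soluble proteins, and enzymes with their inhibitors. Of these, 52 had a row annotated with exactly 1 gene symbol, out of 22180 genes in all. Fbn1, Efemp2 and Spp1 had no such row, and the rows of Loxl2 carried a second symbol. Col1a2, Col5a1, Col6a1 and Nid1 had 2 rows each, and the row with the higher mean over all arrays was used. The rows were selected on their mean signal over all 6 arrays, and the genes were chosen by their role in the matrix. The list was put together with results of this comparison known, so counts over it describe the list and support nothing about matrix genes as a class.

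Both groups were the same PU.1low URE-/- line, which came from 1 leukaemic mouse without the URE, the upstream regulatory element that enhances the PU.1 gene Spi1. The 3 vehicle samples received water and the 3 DB2313 samples 330 nM of the compound, each for 24 h. The medium of both groups contained 10% FBS, 15% WEHI supernatant and 15% BHK supernatant, so proteins made by other cells were present in the culture, whereas the arrays measured RNA of the cells. The labels call the samples biological replicates without saying that cultures were started separately, so the p-values rest on the spread among these 6 samples, which may be technical.

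The extracellular matrix is a network of collagens, laminins and large glycoproteins that cells secrete around themselves. Matricellular proteins such as thrombospondins bind to that network and to cell receptors without being part of its framework, and insulin-like growth factor (IGF) binding proteins hold growth factors in it. Lysyl oxidases and transglutaminases crosslink its fibres, metalloproteinases cut them, and tissue inhibitors of metalloproteinases (TIMPs) restrain the cutting. In bone marrow most matrix is made by stromal cells, while monocytes, macrophages and megakaryocytes secrete a smaller set that includes fibronectin, thrombospondin and coagulation factor XIII.

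The median signal of all genes lay between 5.15 and 5.21 (log2) on the 6 arrays. Among 10 markers of myeloid leukaemia cells, 9 lay above the range of olfactory receptor genes, and Ptprc, the leukocyte antigen CD45, lay within it, at 3.32 in vehicle. That range is used here as a guide to dim rows: it ends at 4.84, the 0.95 quantile of 1105 olfactory receptor genes, which blood cells are not expected to use. Signals of different rows depend on their probes, so they give no order of RNA amounts between genes. The mean of 10 stromal markers did not separate the groups, at 4.55 to 4.59 in vehicle and 4.55 to 4.58 with DB2313. Of the 10, 6 lay within the olfactory receptor range: Pdgfra, Pdgfrb, Dcn, Lum, Cxcl12 and Lepr. None of the 10 passed the limma test described below. The groups did not overlap for 2 of them, against 19.3% of all genes. Acta2 had a log2 difference, DB2313 minus vehicle, of -0.26, and Dcn had 0.25. Among the 10 myeloid markers only Spi1 passed that limma test, and it was lower with DB2313 (log2 difference -0.37, limma adjusted p = 0.0342). Its groups did not overlap, at 6.79 to 6.95 in vehicle and 6.49 to 6.52 with DB2313. The call depended on the settings: at most 1 of these 10 markers passed under any of 17 alternatives, and 1 passed under only 8 of them.

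Promoter sequences are shown because PU.1, like other ETS factors, recognises DNA around the letters GGAA. RefSeq promoter windows on GRCm38.p6, from 250 bases before to 50 after a gene's start, were matched by symbol for 41 of the 52 measured members (49 windows). The longer motif GAGGAAGT, which contains the shorter one, was searched on both strands and found in 2 of 41 members, F13a1 and Mmp12, and in 997 of 27025 genes in the table (3.69%). GGAA on either strand was in 48 of 49 member windows and in 96% of all 32851 windows. Of the 6 members that passed the test described below, only Igfbp7 had a window. It and the windows of both genes with the longer motif are printed up to the start. GGAA is in capitals, as is its reverse complement TTCC, which is GGAA on the other strand.
Igfbp7, chr5:77408046-77408295, minus strand: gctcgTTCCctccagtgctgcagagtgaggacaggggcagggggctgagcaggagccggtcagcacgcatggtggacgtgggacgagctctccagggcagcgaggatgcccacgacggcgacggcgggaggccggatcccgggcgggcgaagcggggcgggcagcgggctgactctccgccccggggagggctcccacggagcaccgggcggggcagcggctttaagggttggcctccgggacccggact
F13a1, chr13:37049214-37049463, minus strand: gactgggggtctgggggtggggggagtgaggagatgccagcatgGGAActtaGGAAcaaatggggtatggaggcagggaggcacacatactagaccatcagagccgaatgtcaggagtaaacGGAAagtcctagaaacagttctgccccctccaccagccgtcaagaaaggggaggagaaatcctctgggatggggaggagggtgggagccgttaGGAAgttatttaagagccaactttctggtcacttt
Mmp12, chr9:7344147-7344396, plus strand: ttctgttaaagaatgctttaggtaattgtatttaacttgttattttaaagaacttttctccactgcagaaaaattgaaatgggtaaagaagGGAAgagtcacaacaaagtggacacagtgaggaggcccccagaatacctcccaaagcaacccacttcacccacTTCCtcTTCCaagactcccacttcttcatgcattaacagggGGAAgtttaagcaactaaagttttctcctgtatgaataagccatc

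Counted on both strands, the 250 bases before the start held 1 GGAA in Igfbp7, 4 in F13a1 and 4 in Mmp12. In Mmp12 the longer motif reads ACTTCCTC on the printed strand and ends 80 bases before the start. In F13a1 it lies in the 50 bases after the start, which are not printed. A match describes letters in a window and is not evidence of binding.

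With DB2313, 4 of the 52 measured matrix genes were lower and 2 were higher. Fn1, Thbs1, Prg4 and Tgm2 fell, and Lox and Igfbp7 rose. The other 46 did not pass an adjusted p of 0.05 in limma. Over all 22180 genes tested, 1.81% passed, 1.02% higher and 0.789% lower. The median log2 difference, DB2313 minus vehicle, was -0.05 over the 52 members and -0.0024 over all genes, with 31 members below 0 and 21 above. An unadjusted p under 0.05 was reached by 14 members, against 12.7% of all genes, a share to which the counts at that level below can be set. The arrays of the groups did not overlap for 13 members, against 19.3% of all genes. The 6 members that passed lay above the olfactory receptor range in their mean over all arrays, as did 36 of the 52, and among all genes above that range 3.05% passed. Groups did not overlap for 11 of the 36 members above it, against 26.4% of all such genes. A test without variance shared across genes kept Thbs1 alone of the 6, and called 70 of all genes in place of 401.

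**Figure D1:**
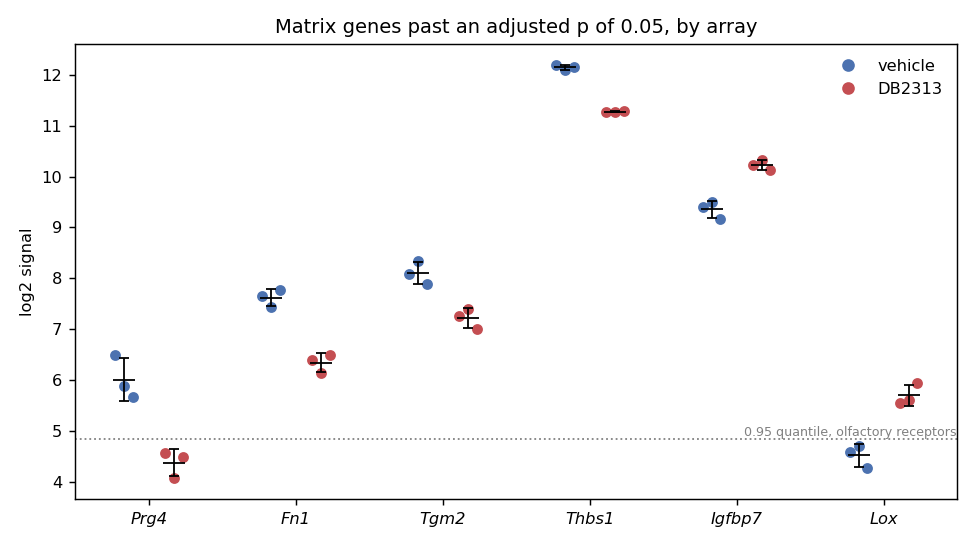
Log2 signal (vertical axis) of the 6 matrix genes past an adjusted p of 0.05, for 3 vehicle arrays (blue) and 3 DB2313 arrays (red), with mean and SD as black bars; the dotted line is the 0.95 quantile of olfactory receptor genes, 4.84. The groups do not overlap for any of the 6 genes, Lox lies below the line in all vehicle arrays, and Prg4 lies below it in all DB2313 arrays. Heights are not comparable between genes.

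Among 17 measured structural proteins, Fn1 fell and 16 did not pass. Fn1 encodes the glycoprotein that links collagens to integrins on the cell surface. Its log2 signal was 7.65, 7.43 and 7.76 in the vehicle arrays and 6.40, 6.14 and 6.49 with DB2313. Every DB2313 array was thus below every vehicle array, with a gap several times the spread within a group. Fn1 was 2.41-fold lower, a log2 difference of -1.27 (SE 0.117, limma adjusted p = 0.0030), and it kept its call after removal of each array in turn (adjusted p 0.0086 to 0.0243).

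Emilin2, an elastic-fibre glycoprotein, was the other structural member whose groups did not overlap. It had 5.67, 5.56 and 5.65 in vehicle and 5.42, 5.13 and 5.31 with DB2313. The log2 difference was -0.34 (95% confidence interval -0.54 to -0.15), and it did not pass (adjusted p = 0.123), though it did when genes below the median signal were left out of the fit (adjusted p = 0.0394). Its relative Emilin1, at 8.66 ± 0.07 under vehicle against 8.60 ± 0.06 (log2, SD, n = 3), had -0.06 (interval -0.22 to 0.09).

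The fibrillar and basement membrane collagens gave no call. None of Col1a1, Col1a2, Col3a1, Col4a1, Col4a2, Col5a1 and Col6a1 passed in limma, 0 of the 7 had an unadjusted p under 0.05, and 0 passed under any of 17 alternative settings. Their log2 differences ran from -0.18 for Col1a1, a chain of type I collagen, to 0.07 for Col4a1, a chain of basement membrane collagen. Col4a1 was also the least precise of them, since its vehicle arrays ranged from 4.98 to 5.75, and its interval ran from -0.35 to 0.49. The second rows of Col1a2, Col5a1 and Col6a1 had -0.11, 0.13 and 0.19 and did not pass either.

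Laminins and nidogen, which form the sheet of basement membranes, likewise gave 0 calls among 4 members in limma and 0 with an unadjusted p under 0.05. They ranged from -0.19 for Lamc1 to 0.13 for Nid1, with Lama5 at -0.03 and Lamb2 at 0.04, and 0 passed under the 17 alternatives. Lamb2 and Nid1 lay within the olfactory receptor range, as did Vtn, the plasma glycoprotein vitronectin, at 0.01. Fbln1 and Fbln2, fibulins of elastic fibres and basement membranes, had -0.08 and -0.14 and did not pass.

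**Figure D2:**
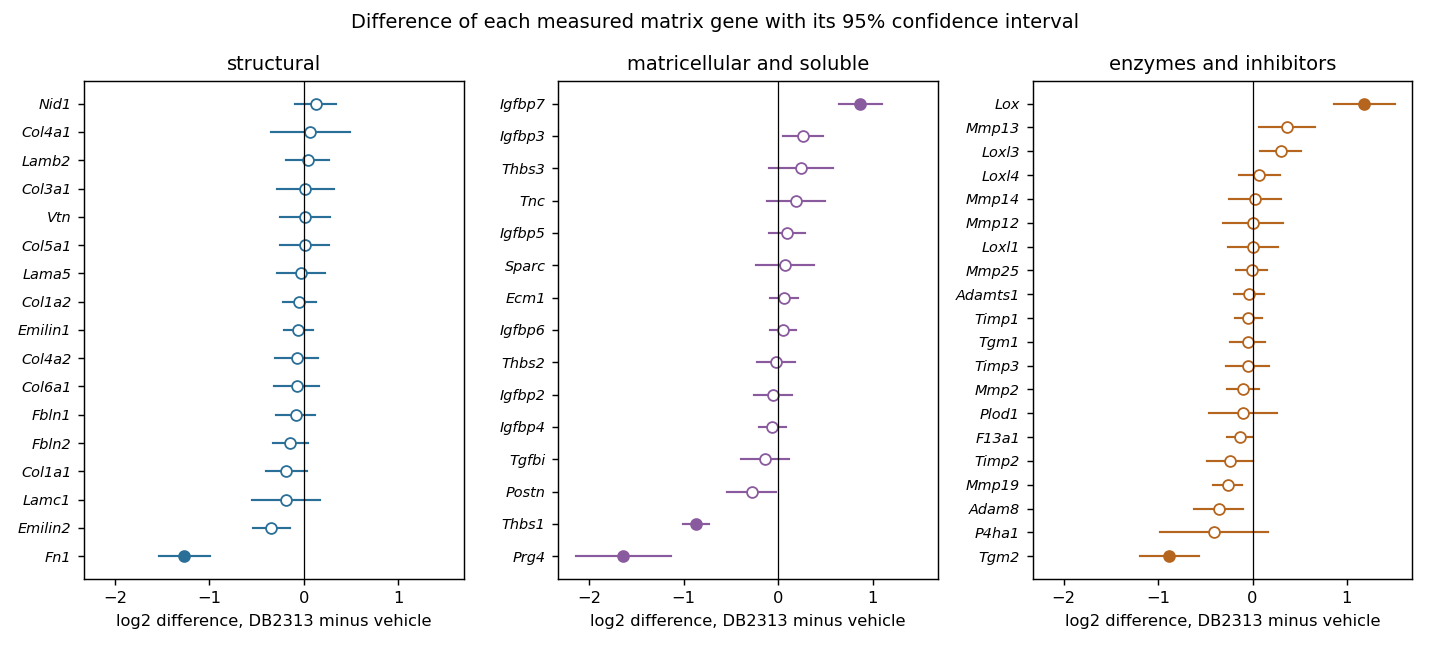
Log2 difference, DB2313 minus vehicle (horizontal axis), of the 52 measured matrix genes in their 3 groups, with lines for the 95% confidence interval; filled points passed an adjusted p of 0.05 over all genes and open points did not. Fn1 is the filled point among structural genes at -1.27; Prg4, Thbs1 and Igfbp7 are filled among matricellular and soluble genes, and Tgm2 and Lox among enzymes.

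Among matricellular and soluble proteins, Thbs1 and Prg4 fell and Igfbp7 rose, and 12 of 15 measured members did not pass. Thbs1 encodes thrombospondin 1, a protein of platelet granules and macrophages that binds integrins and activates latent TGF-beta. Its log2 signal was 12.19, 12.09 and 12.16 in vehicle and 11.27, 11.26 and 11.29 with DB2313. The DB2313 arrays were nearly equal, and all were below the vehicle arrays. Thbs1 was 1.83-fold lower (log2 difference -0.87, SE 0.059, limma adjusted p = 0.00084), and removing each array in turn gave adjusted p values of 0.0060 to 0.0087.

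Megakaryocyte markers were set beside Thbs1. The mean log2 signal of 6 measured markers lay between 4.50 and 4.63 in vehicle and between 4.39 and 4.46 with DB2313. Of these 6, 5 were below 0 and 0 passed in limma (2 had an unadjusted p under 0.05, and 1 passed with a trended prior), and Pf4 and Ppbp, which define platelets, lay within the olfactory receptor range at 3.80 and 3.78 in vehicle. The lower mean rested on Gp6 (-0.48) and Gp9 (-0.27); without both, a choice made after their values were seen, the other 4 lay between 4.24 and 4.45 in vehicle and between 4.29 and 4.33 with DB2313. The part of these markers in the difference of Thbs1 was not tested. In a bulk sample fewer cells of a type and less RNA per cell cannot be told apart, here and in the results that follow.

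The other thrombospondins did not pass. Thbs2 had a log2 difference of -0.02 (interval -0.22 to 0.18) and Thbs3 one of 0.25 (interval -0.09 to 0.59). Thbs4, which is not a member and comes from the other matrix genes below, had a mean of 11.7 in both groups. Its log2 difference was -0.09 (interval -0.26 to 0.09). Whether they differed from Thbs1 in response was not tested.

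Prg4 encodes lubricin, a mucin-like proteoglycan known from joint surfaces. Its log2 signal was 6.49, 5.88 and 5.66 in vehicle and 4.57, 4.07 and 4.48 with DB2313. All 3 DB2313 values were below the vehicle values and inside the range of olfactory receptor genes, so the size of the fall is uncertain and no fold is given. The vehicle mean lay 1.17 above the end of that range, and the log2 difference fitted to the deposited values was -1.64 (SE 0.218, limma adjusted p = 0.0127). An offset of 32 on the linear scale, which damps dim rows, made it -0.88, still past the threshold. Without DB2313 replicate 3 it did not pass (adjusted p = 0.0531).

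Igfbp7 encodes a secreted IGF-binding protein that is deposited in vascular basement membrane. It had 9.40, 9.49 and 9.17 in vehicle and 10.22, 10.33 and 10.13 with DB2313. Every DB2313 array was above every vehicle array. Igfbp7 was 1.83-fold higher (log2 difference 0.87, SE 0.098, limma adjusted p = 0.0069), and removing single arrays did not end the call (adjusted p 0.0153 to 0.0372).

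Endothelial markers were set beside Igfbp7. The mean of 6 lay between 5.24 and 5.38 in vehicle and between 5.41 and 5.52 with DB2313, with 3 above 0 and 3 below. Only Cdh5 passed, with a log2 difference of 0.86, and without it (a choice made after its value was seen) the mean of the other 5 ran from 4.94 to 5.12 in vehicle, with all 3 DB2313 values inside that range. Kdr, Tek, Emcn and Vwf lay within the olfactory receptor range, and Pecam1, which leukocytes also carry, had 0.11. The part of these markers in the rise of Igfbp7 was not tested.

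Of the other IGF-binding proteins none passed. Igfbp4, with a strong signal of 10.60 ± 0.03 under vehicle against 10.54 ± 0.06 (log2, SD, n = 3), had a log2 difference of -0.06 and a narrow interval, from -0.21 to 0.08. Igfbp3, the main carrier of IGF in plasma, had 4.56, 4.69 and 4.84 in vehicle and 5.08, 4.90 and 4.90 with DB2313. The groups did not overlap, but with a log2 difference of 0.26 it missed the threshold (adjusted p = 0.279), and its mean lay within the olfactory receptor range. Igfbp2, Igfbp5 and Igfbp6 had -0.06, 0.10 and 0.05.

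Among the remaining proteins of this group, Postn, which encodes the fibroblast product periostin, had 3.41, 3.75 and 3.72 in vehicle and 3.44, 3.40 and 3.20 with DB2313. The values are low and overlap, and its log2 difference of -0.28 did not pass (adjusted p = 0.346). Sparc (0.07) and Tnc (0.18), matricellular proteins of remodelling tissue, lay within the olfactory receptor range in both groups. Tgfbi, a TGF-beta-induced protein of macrophages and stroma, had -0.14, and Ecm1, at 8.56 ± 0.03 in vehicle, had 0.07 (interval -0.08 to 0.22).

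Among 20 measured enzymes and inhibitors, Lox rose and Tgm2 fell, and both belong to the enzymes that crosslink matrix proteins. Lox encodes lysyl oxidase, which oxidises lysines of collagen and elastin so that fibres become linked. It had 4.58, 4.71 and 4.27 in vehicle and 5.55, 5.61 and 5.94 with DB2313. All vehicle values lay inside the olfactory receptor range and all DB2313 values above it, so the size of the rise is uncertain and no fold is given. The DB2313 mean lay 0.86 above the end of that range, and the log2 difference fitted to the deposited values was 1.19 (SE 0.140, limma adjusted p = 0.0078), or 0.61 with the offset of 32, and no single array decided the call (adjusted p 0.0180 to 0.0455 with each removed).

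The other lysyl oxidases did not pass. All 4 measured members of the family had a difference above 0, that of Loxl1 by very little. Loxl2, which was not part of the fit, had -0.05 and 0.05 in its 2 rows. Loxl3 had 5.62, 5.56 and 5.89 in vehicle and 6.05, 5.98 and 5.92 with DB2313. Its groups did not overlap, by a margin of a few hundredths, and its log2 difference was 0.30 (interval 0.08 to 0.52, adjusted p = 0.233). Loxl1 had 0.0058 (interval -0.26 to 0.27) and Loxl4 0.07 (interval -0.15 to 0.29).

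Tgm2 encodes tissue transglutaminase, which links glutamine and lysine residues of proteins and binds fibronectin at the cell surface. It had 8.08, 8.33 and 7.89 in vehicle and 7.25, 7.39 and 7.01 with DB2313. The groups were separated by more than the spread within either. Tgm2 was 1.84-fold lower (log2 difference -0.88, SE 0.135, limma adjusted p = 0.0218). Removal of single arrays ended the call in 4 of 6 cases: without vehicle replicate 1 (adjusted p = 0.0931) or 2 (0.0605), or without DB2313 replicate 1 (0.0846) or 3 (0.0772).

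The plasma transglutaminase of the list changed little. F13a1, the catalytic subunit of coagulation factor XIII and a product of monocytes and megakaryocytes, had 12.44, 12.51 and 12.48 in vehicle and 12.33, 12.35 and 12.35 with DB2313. These values lie near the top of the table, which ends at 13.22, and all DB2313 arrays were below the vehicle arrays. The log2 difference was only -0.13 (adjusted p = 0.394, or 0.0154 with a trended and robust prior). Tgm1, an enzyme of skin, had -0.05.

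**Figure D3:**
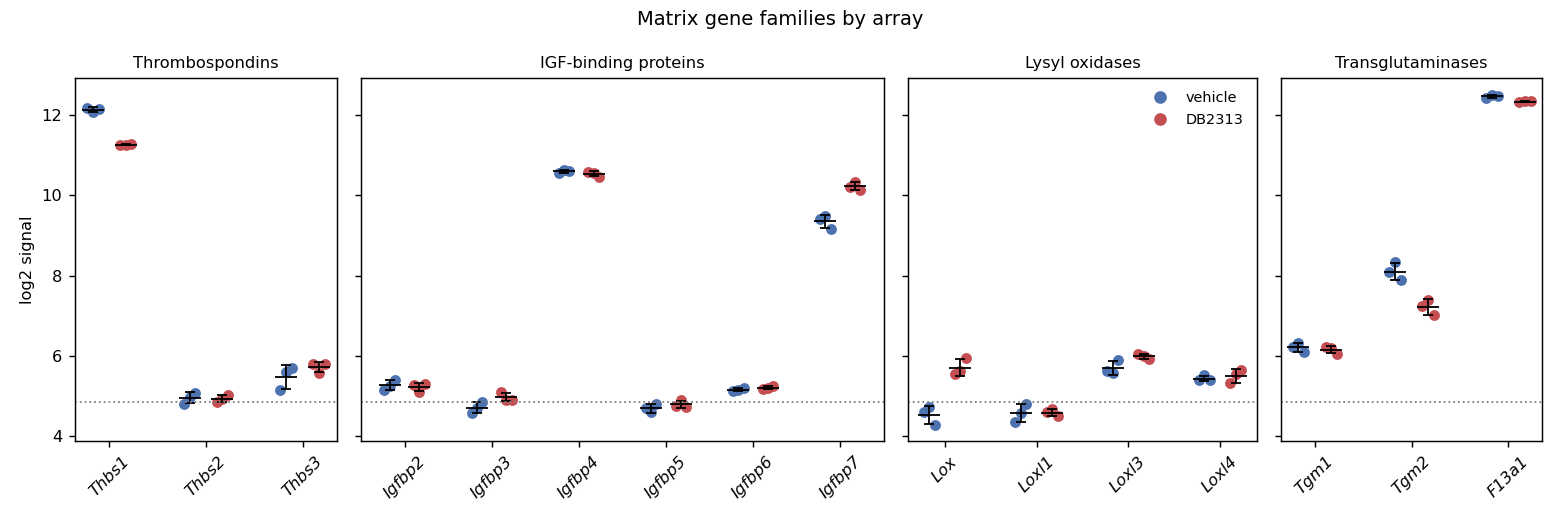
Log2 signal (vertical axis) of 4 families of matrix genes in 3 vehicle (blue) and 3 DB2313 (red) arrays, with mean and SD as black bars and the 0.95 quantile of olfactory receptor genes as a dotted line at 4.84. The groups are clearly apart for Thbs1, Igfbp7, Lox and Tgm2 and lie close together for Igfbp4, Thbs2, Loxl1 and Tgm1; heights are not comparable between genes.

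None of the 6 matrix metalloproteinases passed in limma, 2 had an unadjusted p under 0.05, and 1 passed under 3 of 17 alternatives. That was Mmp19, an enzyme of basement membrane turnover also made by myeloid cells, with 8.43, 8.48 and 8.48 in vehicle and 8.13, 8.30 and 8.17 with DB2313. The groups did not overlap, and its log2 difference was -0.26 (interval -0.42 to -0.11, adjusted p = 0.137). It passed with the offset of 32 (adjusted p = 0.0324), with genes below the median left out (0.0369) and with a trended and robust prior (0.0181).

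Mmp13, a collagenase, had 3.50, 3.54 and 3.95 in vehicle and 3.97, 4.16 and 3.97 with DB2313. All of these lay within the olfactory receptor range, and the log2 difference of 0.37 (adjusted p = 0.276) shrank to 0.11 with the offset. Mmp2, Mmp12 and Mmp25, a gelatinase, the macrophage elastase and a membrane-bound leukocyte enzyme, lay within that range too, at -0.10, 0.0076 and -0.0093. Mmp14, which activates other metalloproteinases at the cell surface, had 0.03 (interval -0.24 to 0.31).

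Adam8, a membrane metalloproteinase of leukocytes, had 5.76, 6.19 and 5.87 in vehicle and 5.53, 5.66 and 5.55 with DB2313. Every DB2313 array was lower, and the log2 difference was -0.36 (adjusted p = 0.228). Adamts1, a protease of proteoglycans, had -0.04 within the olfactory receptor range. The inhibitors Timp1, Timp2 and Timp3 had differences of -0.05, -0.24 and -0.05. None passed in limma, 0 of the 3 had an unadjusted p under 0.05, and 0 passed under the 17 alternatives. Timp1 and Timp3 lay within the olfactory receptor range. Timp4, from the other matrix genes below, lay within it too and had 0.05.

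The collagen hydroxylases P4ha1 and Plod1, which modify prolines and lysines before collagen is secreted, varied more within groups than between them. P4ha1 had 7.87, 8.55 and 8.02 in vehicle and 7.25, 8.13 and 7.83 with DB2313, a log2 difference of -0.41 with an interval from -0.98 to 0.16. That difference was -0.17 without DB2313 replicate 1 and -0.21 without vehicle replicate 2. Plod1 had 8.32, 8.84 and 8.42 in vehicle and 8.25, 8.65 and 8.38 with DB2313, a difference of -0.10. Replicate 2 was the highest of its group for both genes in both groups, and neither gene passed under any of the 17 alternatives.

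Other genes of the matrix were taken from 6 lists, of which 152 of 158 genes were measured. In limma 3 of them rose and 2 fell, against 1.81% of all genes passing. None of the 5 came from the lists of collagens, proteoglycans, further glycoproteins or collagen-modifying enzymes. Sdc4, a cell-surface proteoglycan, was listed with the receptors. Among 25 matrix receptors, Lair1, an inhibitory collagen receptor of leukocytes, rose, with 6.52, 6.55 and 6.17 in vehicle and 7.33, 7.29 and 7.17 with DB2313. It was 1.80-fold higher (log2 difference 0.85, adjusted p = 0.0113), and its call was lost without DB2313 replicate 1 (adjusted p = 0.0573) or 2 (0.0516).

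Cd44, the hyaluronan receptor, was 1.43-fold lower (log2 difference -0.52, adjusted p = 0.0189). It went from 6.99, 7.05 and 6.96 to 6.35, 6.57 and 6.53, and passed in 1 of 6 fits that each omitted an array (at most 0.0805). Sdc4, a heparan sulphate proteoglycan that binds fibronectin beside integrins, rose by 0.56 on the log2 scale (adjusted p = 0.0244). Its signals lay within the olfactory receptor range in both groups, and with the offset the difference was 0.16. It too passed in 1 of these 6 fits (at most 0.0984).

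The chains of the fibronectin-binding integrins did not pass. Itga5 had a log2 difference of -0.13 (interval -0.30 to 0.03), Itgb1 had -0.11 (interval -0.26 to 0.04), and Itgav had 0.06 (interval -0.08 to 0.21). The groups overlapped for Itga5 and Itgav but not for Itgb1. Itga4, the alpha chain of another fibronectin receptor, had 8.89, 8.76 and 8.83 in vehicle and 9.04, 9.11 and 9.10 with DB2313. Its groups did not overlap either, and its log2 difference of 0.26 (interval 0.11 to 0.41) did not pass (adjusted p = 0.127).

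Among 33 further proteases and inhibitors, Hpse, the heparanase that cuts heparan sulphate chains, was 1.79-fold lower. It had 8.51, 8.61 and 8.44 in vehicle and 7.55, 7.75 and 7.74 with DB2313, a log2 difference of -0.84 (adjusted p = 0.0037) that passed with each array removed in turn (at most 0.0248). Hpse has 2 rows, and these values come from the brighter one alone. The mean of both rows gave a smaller difference, -0.48 (adjusted p = 0.0161), so the other row differed less. Adam17, a sheddase of membrane-bound ligands, rose by 0.39 (adjusted p = 0.0364), and lost its call on removal of any array (0.0716 to 0.142).

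None of 21 other collagens passed in limma, with 0 at an unadjusted p under 0.05 and 0 under the 17 alternatives. None of the 15 genes in the list of proteoglycans, which leaves out Sdc4, passed either. Of these, 2 had an unadjusted p under 0.05, where all genes gave 12.7%, and 0 passed under the alternatives. Of 43 further glycoproteins 0 passed, with 7 at an unadjusted p under 0.05 and up to 2 past the threshold under 4 alternatives. Of 15 collagen-modifying genes 0 passed, with 1 at an unadjusted p under 0.05 and 0 under the alternatives.

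Macrophage markers were compared because Fn1 and Thbs1 are also products of macrophages. The mean of 8 lay between 5.203 and 5.283 in vehicle and between 5.182 and 5.198 with DB2313. Every DB2313 array was thus below every vehicle array, by a few thousandths at the nearest, with 5 of the 8 markers below 0. None of the 8 passed in limma, 1 had an unadjusted p under 0.05, and 1 passed under 5 of 17 alternatives. Cd68 differed most, at 7.46 ± 0.12 under vehicle against 6.99 ± 0.13 (log2, SD, n = 3). Its groups did not overlap, and its adjusted p in limma was 0.0554. The log2 difference was -0.47 for Cd68. Among the other markers it ran from -0.16 for Mertk to 0.19 for Cd14, with 3 above 0. The lower mean thus rested largely on Cd68. Adgre1, Mrc1 and C1qb lay within the olfactory receptor range in both groups. The part of these markers in the differences of Fn1 and Thbs1 was not tested.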

How the data were processed

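Total RNA of 6 samples was labelled with biotin and hybridised to Affymetrix arrays, per the labels' protocols. The deposited table gives 1 log2 value per row (probe set) and array; the scale was judged from its range, 1.67 to 13.22. The submitters' processing notes name Affymetrix Expression Console, and no source used here gives the background correction or summarisation. No detection calls were used.

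Rows annotated with exactly 1 symbol were kept, and for genes with several rows the one with the highest mean over all arrays, which left 22180 genes. DB2313 was compared with vehicle in limma 3.58.1 (R 4.3.3; lmFit, eBayes, 2-sided), with Benjamini-Hochberg adjustment over all 22180 genes at 0.05. On simulated arrays of 22180 genes with 200 changed, the fit recovered 49.3% at a log2 difference of 0.5 and 93% at 1. Values in every array are given for members with an unadjusted p under 0.05. Members and lists were chosen with earlier results of these data known. Alternatives covered filters, normalization, an offset, the prior, rows per gene, a minimum difference, a replicate block and leaving out each array. Replicate numbers were not used as pairs in the main fit. The correlation of same-numbered deviations lay between 0.0083 and 0.078 for all 3 numbers, and that of different numbers between -0.071 and 0.047. These low correlations cannot decide whether the numbers pair the arrays.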

Additional observations from a re-analysis of the deposited data

How the results depend on the processing

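Of the 6 members past the threshold, Thbs1 passed under all 17 alternatives. The unmoderated test left 0 higher and 1 lower member. The replicate block left 1 higher and 4 lower, Lox being the one lost (adjusted p = 0.0560). Whether the replicate numbers pair these samples is not known. With genes below the median left out, 1 member was higher, since Lox was then not tested, and 6 were lower. Leaving out each array gave 2 higher members each time and 2 to 4 lower, the fewest without DB2313 replicate 3. For other matrix genes, 3 higher and 2 lower, the counts were 5 and 4 with the offset of 32, 5 and 5 with the trended prior, 0 and 0 unmoderated, 1 and 1 with the replicate block, and 5 lower and 4 lower with the 0.25 quantile and median filters. Leaving out each array gave 0 to 2 higher and 1 to 2 lower. The cause was not tested. Leaving out each array gave Plod1 a log2 difference between -0.21 and 0.054, above 0 only without vehicle replicate 2. Over all genes the count of calls ranged from 70 (unmoderated) to 920 (trended prior), against 401. The number of arrays and the unmeasured background limit dim rows.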

Other observations

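Loxl2, a lysyl oxidase whose 2 rows carry a second symbol, had log2 differences, DB2313 minus vehicle, of -0.05 and 0.05 in these rows (3 arrays a group). They were not part of the fit and have no test.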
